A study of Saccharomyces cerevisiae with 26 samples.

Results

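The cytosolic ribosomal protein genes of Saccharomyces cerevisiae encode the proteins of the large subunit, named RPL, and of the small subunit, named RPS. They were taken as the nuclear protein-coding genes of the R64 annotation whose symbol is RPL or RPS followed by digits and an optional A or B. This gave 132 of 6002 genes, 76 RPL and 56 RPS, on 15 of the 16 nuclear chromosomes. Of these, 57 proteins have an A and a B gene, and 18 genes are single copies. The remaining 5870 nuclear genes served as background. The study sequenced RNA 3′ ends in 26 libraries of the strains Mex67-AA and Nab2-AA. Both are W303 strains with tor1-1, a deletion of fpr1 and an RPL13-2xFKBP12 fusion, which holds an FRB-tagged Mex67 or Nab2p in the cytoplasm once rapamycin is added, and both carried a 2μ plasmid with the URA marker that overexpresses the uridine permease FUI1. Libraries came from total RNA, from RNA labelled with 4-thiouracil (4tU) for 2 min, or from a mock immunoprecipitation of Mex67-AA RNA without 4tU. They were made directly (pA+) or after polyadenylation in vitro with E. coli poly(A) polymerase (pA+,-), and 12 came from cells treated with rapamycin for 15 min. The values below come from the genomic A-mask, the positions that were taken out of every one of these libraries. It is one fixed list for all groups, so it shows where a ribosomal protein gene could contribute 3′ ends and not how many it contributed.

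Ribosomal proteins are small, strongly basic proteins, rich in lysine and arginine, that bind ribosomal RNA. Their genes are among the most highly transcribed in growing yeast, most were duplicated in an ancient genome duplication, and they hold most of the long introns of this organism. The library protocol primes reverse transcription with oligo(dT). A stretch of A inside an RNA can therefore be taken for a poly(A) tail, and the mask lists positions that are followed by such a stretch on the same strand. The written criteria were more than 4 As with no C or T in the next 6 bases, or more than 12 As in the next 18 bases. The counts are a complete enumeration of reference positions, without samples, replicates or sampling error, so no test was applied and groups are described by pooled shares and medians. One of the 2 RPL13 loci carries the fusion in both strains, and the methods give no copy letter for it. The sequence after the codons of that locus therefore differed in the cells from the reference used here.

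The sequences that show what was masked are printed 5′ to 3′ on the strand of the gene, with masked positions in capitals. They come from the RefSeq sequence of R64, which is that of sacCer3. The highest masked shares belonged to the genes of the shortest ribosomal protein, RPL41, a very basic peptide at the interface of the subunits. Their whole coding sequences, at chrIV:130407-130484 and chrIV:221724-221801 on the minus strand, were masked at the same 17 of 78 positions.
RPL41A: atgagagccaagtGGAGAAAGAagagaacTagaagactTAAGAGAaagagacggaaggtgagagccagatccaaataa
RPL41B: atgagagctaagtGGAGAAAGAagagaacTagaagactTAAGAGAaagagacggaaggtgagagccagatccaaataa
The intron of RPL26B, the gene of a protein near the exit of the nascent peptide tunnel, held the longest intronic run, 39 bp long, at chrVII:555972-556010 on the plus strand, shown with 4 bases before it and 20 after it.
RPL26B: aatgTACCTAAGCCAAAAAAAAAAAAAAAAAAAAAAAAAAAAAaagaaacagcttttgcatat
The longest run after a stop codon, 35 bp long, belonged to RPS7B, of which 30 bases at chrXIV:443333-443362 on the minus strand are shown.
RPS7B: acTTAAAGAAAATAATATTAAGAAAAAATA
The masked positions of RPL41 preceded lysine and arginine codons and mixtures of A and G, while the intronic run was made of A alone for most of its length.

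Coding sequences of ribosomal protein genes were masked more often than those of other genes. Of their 62910 sense positions, 2751 were masked, or 4.37%, compared with 3.06% in the other nuclear genes. The median gene had 4.13% masked (quartiles 2.87% and 6.09%), compared with 2.59% (quartiles 1.72% and 3.87%). More than 5% was masked in 48 of the 132 genes, or 36.4%, where 14.1% of other genes passed that share. None of the 132 genes was free of masked positions, near the 1.4% of other genes, 82 of 5870, that were. On the antisense strand, which carries no signal of the gene, 0.733% of the same positions was masked, compared with 1.01% in other genes. The median length left after masking was 420.5 bp, from a median coding length of 435 bp.

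The excess did not hold under the criteria as written. Every position that met them was in the mask, but only 20.7% of the masked coding positions of ribosomal protein genes did so, compared with 38.8% in other genes. Counting these alone, 0.904% of the ribosomal protein coding sequence was selected, less than the 1.19% of other genes, and the medians were 0.843% and 0.967%. In 8 genes, 6.06%, no coding position met the written criteria, near the 5.11% of other genes. All 8 encode large-subunit proteins, namely RPL1A, RPL1B, RPL9A, RPL9B, RPL30, RPL32, RPL33A and RPL33B, and they are named here because of their values. Both copies of RPL1, RPL9 and RPL33 are among them. A count of 0 is also reached more easily in short sequences, and median coding lengths were 435 bp in ribosomal protein genes and 1224 bp in other genes. A further 70.4% of the masked positions were followed by exactly 4 As and no C or T in 6 bases, compared with 45.3% in other genes. Exactly 12 As in 18 bases accounted for 5.02% and 13.04%. The remaining 3.93% and 2.94% met neither count. In coding exons of both groups, 0 positions with at least 4 As and no C or T in 6 bases, or at least 12 As in 18, were unmasked. The deposited mask thus held all coding positions that meet an 'at least' reading of the counts, where the written criteria say 'more than'.

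**Figure D1:**
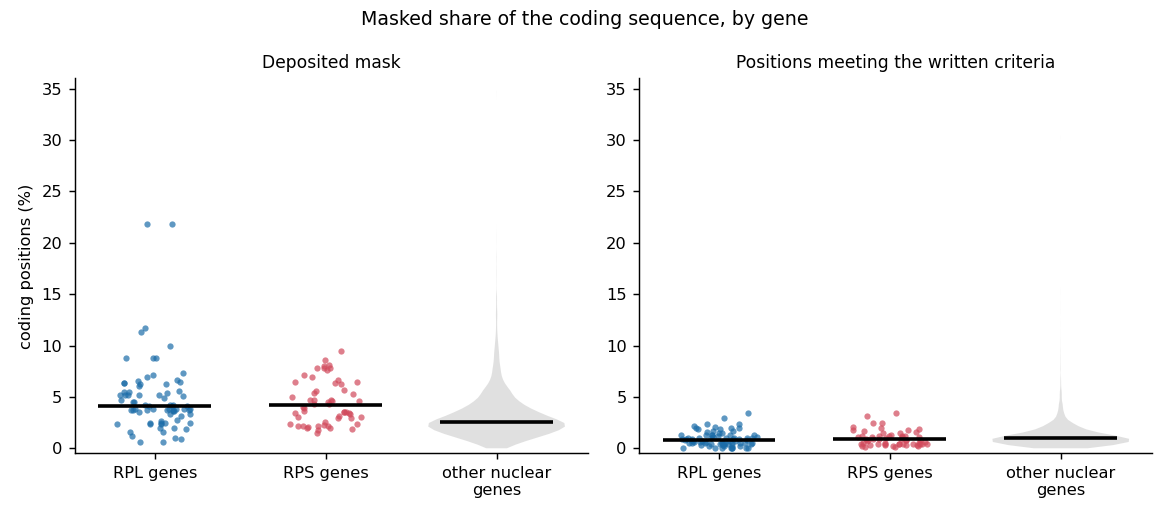
Share of sense coding positions (y axis, %) by gene in the deposited mask (left) and for positions that meet the written criteria (right). Points are RPL and RPS genes, the grey shape is the distribution of the other nuclear genes, and black lines are medians. With the deposited mask the medians are 4.13% for RPL, 4.17% for RPS and 2.59% for other genes, and with the written criteria they are 0.811%, 0.861% and 0.967%.

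**Figure D2:**
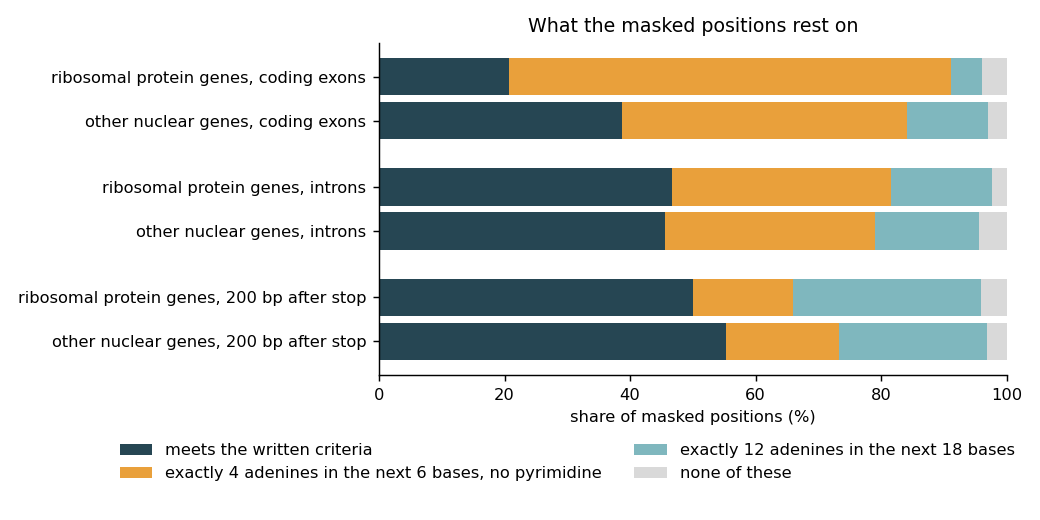
Composition of the masked positions (x axis, % of masked positions) in coding exons, introns and the 200 bp after the stop codon, for ribosomal protein genes and other nuclear genes. The class with exactly 4 adenines in the next 6 bases makes up 70.4% of the masked coding positions of ribosomal protein genes, 45.3% of those of other genes, 35.0% in ribosomal protein introns and 15.8% after their stop codons.

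The bases after masked coding positions reflected the codons of these genes. AAGAAG, which reads as a pair of the lysine codon AAG when in frame, followed 12.3% of the masked positions of ribosomal protein genes and 4.48% of those of other genes. AGAAGA followed 9.38%, compared with 4.19% in other genes, and GAAGAA 7.997%, compared with 5.01%. These words overlap AAGAAG when the triplet repeats. In frame, AGAAGA reads as a pair of arginine codons and GAAGAA as a pair of glutamate codons. AAGAAG occurred in 87.9% of ribosomal protein coding sequences and 68.5% of all other coding sequences, at 5.36 and 1.37 per 1000 bases. On the antisense strand it occurred in 23.5% and 37.1%, at 0.652 and 0.400 per 1000 bases. The share of sequences that hold a word also rises with their length, and the median coding sequence was 435 bp in ribosomal protein genes and 1224 bp in other genes. AAAAAA showed the opposite order, at 0.270 and 1.70 per 1000 bases and in 11.4% and 63.7% of the sequences, and on the antisense strand in 0.758% and 40.0%, at 0.0159 and 0.647 per 1000 bases. The masked position was the third base of a codon in 46.4% of cases, compared with 36.7% in other genes.

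Codon use and protein composition could be read side by side. Lysine made up 11.1% of the codons of the median ribosomal protein gene and 7.25% of those of the median other gene, and arginine 8.49% and 4.37%. AAG was used for 83.7% of lysines, compared with 41.1% in other genes, and AGA for 80.4% of arginines, compared with 46.9%. Of 291 pairs of adjacent lysines, 230 were AAGAAG, or 79.0%, and 1 was AAAAAA, whereas these words made up 20.7% and 28.2% of the lysine pairs of other genes. All 291 pairs were preceded by a masked base, and so were 19551 of the 19555 lysine pairs of other genes, or 99.98%. This follows from the mask, since either codon gives at least 4 As and no C or T. Pairs in which both residues were lysine or arginine made up 4.09% of adjacent codons, compared with 1.72%, and 90.5% of them followed a masked base, compared with 73.3%. They followed 61.0% of the masked positions at codon ends in ribosomal protein genes and 37.4% of those in other genes. Pairs with glutamate followed masked codon ends too. Pairs of glutamates followed 8.45% and 8.99% of them, glutamate before lysine 9.40% and 14.4%, and lysine before glutamate 8.45% and 13.9%. Glutamate before arginine followed 4.70% and 3.46%, and arginine before glutamate 4.22% and 2.90%.

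Within 1 window of lysine content the masked share of ribosomal protein genes was below that of other genes. Among genes with lysine between 8.69% and 14%, the quartiles of the ribosomal protein genes, 67 ribosomal protein genes had 4.22% of their coding positions masked, and 1462 other genes had 4.799%. Under the written criteria these shares were 0.833% and 1.96%. Across genes, Spearman's rho between lysine content and masked share was 0.48 over the 132 genes and 0.68 over the 5870 others, as a description, since paralogs share their sequence and all genes share base composition. RPL42A, RPL42B and RPL29, whose lysine content exceeded 20%, had 3.74%, 3.74% and 3.33% masked, and they are named because they lay below the trend.

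**Figure D3:**
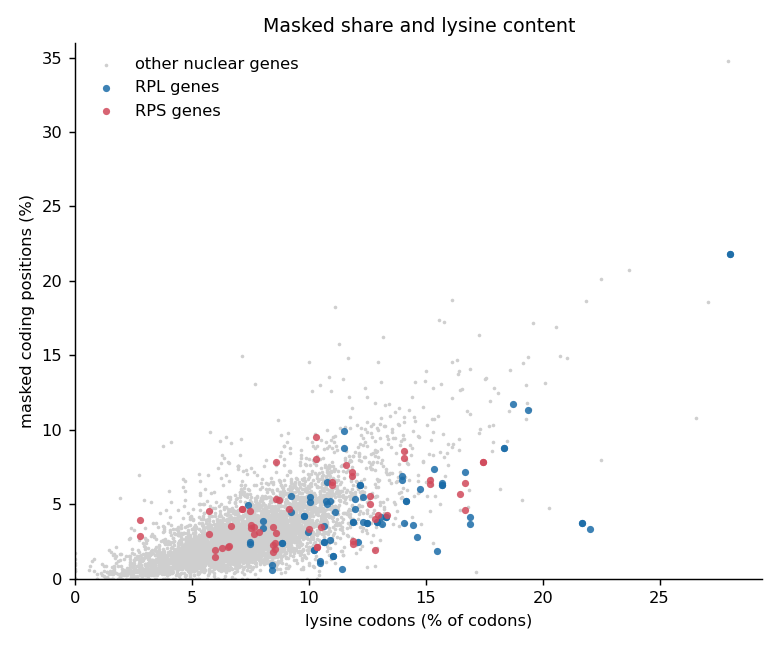
Masked share of the coding sequence (y axis, %) against lysine codons (x axis, % of codons), 1 point per gene, for RPL, RPS and other nuclear genes. RPL41A and RPL41B share a point at 28% lysine and 21.8% masked, and RPL29, RPL42A and RPL42B lie near 22% lysine with less than 5% masked.

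Next to RPL41A and RPL41B with 21.8%, the highest shares were those of RPL24B with 11.8% (55 of 468 positions), RPL24A with 11.3% (53 of 468) and RPL31B with 9.94% (34 of 342). RPL24 forms a bridge between the subunits, and RPL31 lies near the tunnel exit. The lowest share was that of RPL33A, at 2 of 324 positions or 0.617%, and its paralog RPL33B had 3 of 324, or 0.926%. RPL30, which in yeast binds its own transcript and inhibits its splicing, had 2 of 318 masked positions, or 0.629%. RPL9A had 6 of 576 and RPL9B 7 of 576, and RPL9 lies close to the base of the stalk. The extremes were therefore large-subunit genes at both ends. Lysine content did not by itself order them, as RPL30 had 11.4% lysine and RPL31B 11.5%. The contrast can be seen in the longest masked runs of RPL24A and RPL24B and in the stretch around 1 of the 2 masked positions of RPL33A (chrVII:437570-437603 and chrVII:787415-787448, minus strand; chrXVI:282699-282723, plus strand).
RPL24A: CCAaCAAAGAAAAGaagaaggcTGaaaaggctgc
RPL24B: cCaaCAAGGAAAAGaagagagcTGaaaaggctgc
RPL33A: gatcCaagagagtcaacaacccaaa

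Masked positions were most frequent in the last part of the coding sequence. When each sequence was divided into 5 equal parts, the masked share of ribosomal protein genes was 3.81%, 3.13%, 3.87%, 4.70% and 6.35% from 5′ to 3′. The last part was the highest, and its share was 6.35% compared with 3.64% in other genes, where the parts before it ranged from 2.82% to 3.04%. Lysine and arginine together made up 19.4%, 20.7%, 19.1%, 19.3% and 21.3% of the codons in these parts of ribosomal protein genes, so that the second part had the lowest masked share and not the lowest share of these codons. The coding sequence reached 400 bp or more in 84 ribosomal protein genes and 5236 other genes. There, the difference between the groups was 1.11 percentage points over whole sequences and 0.354 with the last 200 bp left out. Over all genes it was 1.31. A fixed 200 bp is a larger part of ribosomal protein genes, as median coding lengths over all genes were 435 bp and 1224 bp.

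**Figure D4:**
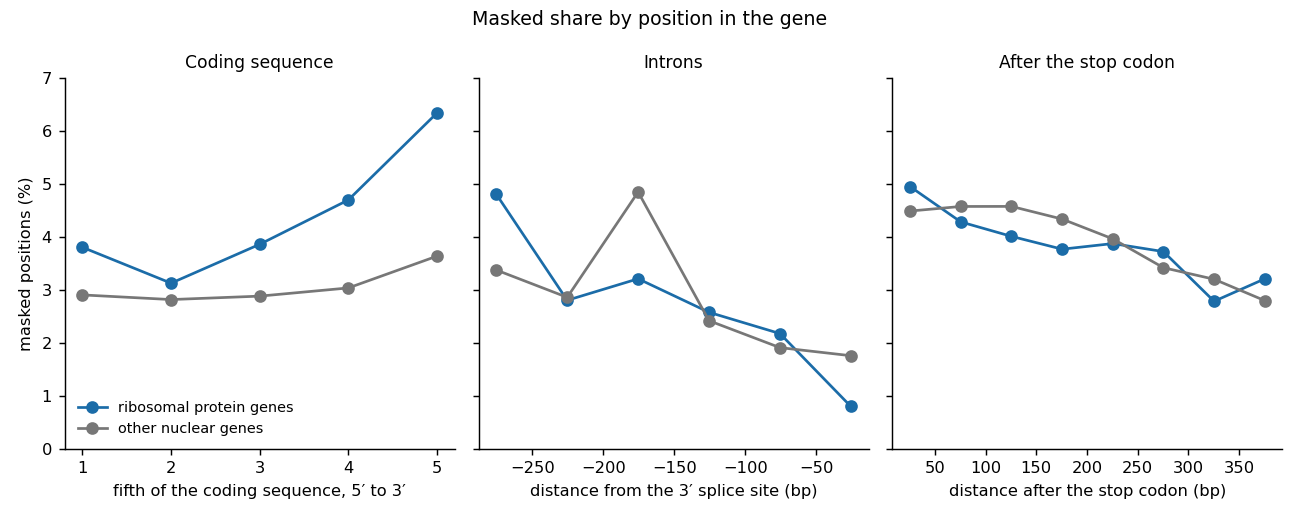
Masked share (y axis, %) in 5 equal parts of the coding sequence (left), in bins of 50 bp by distance from the 3′ splice site (middle) and in bins of 50 bp after the stop codon (right), for ribosomal protein genes and other nuclear genes. Ribosomal protein genes reach 6.35% in the last part of the coding sequence, 0.8% in the last 50 bp of introns and 4.95% in the first 50 bp after the stop codon.

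The subunits had nearly the same masked share. RPL genes had 4.34% of coding positions masked and RPS genes 4.42%, with medians of 4.13% and 4.17%, and under the written criteria the shares were 0.899% and 0.913%. RPL genes varied more, with a standard deviation over genes of 3.61 percentage points compared with 2.12. More than 5% was masked in 29 RPL genes, 38.2%, and 19 RPS genes, 33.9%, compared with 14.1% of other genes. RPL proteins had a higher median lysine content of 12.02%, compared with 9.57% for RPS proteins, and fewer masked positions per lysine codon, 1.09 compared with 1.34. The order of the pooled shares was not stable, as it turned when only the A gene of each pair was kept.

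The A and B genes of a protein were masked at nearly the same coding positions. Over 57 pairs, 1190 positions of A genes and 1206 of B genes were masked, or 4.43% and 4.49%. Of these, 1091 occupied the same place in both copies, 91.7% of the A positions and 90.5% of the B positions, at a median identity of the coding sequences of 93.2%. The A and B counts were equal in 20 pairs, A was higher in 19 and B in 18. The median difference in count was 1 position, and Spearman's rho between the copies was 0.89 as a description over 57 pairs. RPL12, a protein at the base of the stalk, differed most, with 26 masked positions in RPL12A and 13 in RPL12B. RPS10B exceeded RPS10A with 25 to 17, RPS11B exceeded RPS11A with 19 to 9, RPS25B exceeded RPS25A with 21 to 15, and RPL14B exceeded RPL14A with 23 to 16. RPS10 and RPS25 are proteins of the head of the small subunit.

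Most coding differences between copies were synonymous. In pairs of equal length, 1277 of 1463 base differences were synonymous, or 87.3%. There, 110 runs of positions were masked in 1 copy only. In 67 of them, 60.9%, the codons around the run held base differences that were all synonymous, and in 11 they held none. Single base differences stood at codons 39 to 47 of RPL24, where G123A, counted from the first base of the A copy, lies in a lysine codon, and at codons 27 to 35 of RPL15, where G99A does the same. RPL15 is a large-subunit core protein. In the stretches shown, these were the only differences, and the B copy had 4 more masked positions in RPL24 and 3 more in RPL15.
RPL24A: ttgttcaagCAAAGaaagaaccCAAga
RPL24B: ttgttCAAACAAAGaaagaaccCAAga
RPL15A: gtctgggaatacagaCAaaagaatgtc
RPL15B: gtctGGGaatacagaCAaaaaaatgtc

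After the stop codon the masked positions of the copies had little in common by distance or by count. In the 200 bp after the stop codon, 491 positions were masked in A genes and 504 in B genes, or 4.31% and 4.42% of the windows. Of these, 31 lay at the same distance from the stop codon, 6.31% of the A positions and 6.15% of the B positions. Distances were compared as they stood, so an inserted or lost base would shift all later positions, unlike in the coding sequences. The median difference within a pair was 8 positions, and rho was 0.11 over 57 pairs. In 14 pairs 1 copy had no masked position there while the other had. Such empty windows made up 15.8% of A genes and 8.77% of B genes, compared with 16.4% of other genes. Whether 14 differs from the number in unrelated pairs of genes was not tested. RPL17A had 7 and RPL17B 42, RPS21A 10 and RPS21B 41, RPS7A 12 and RPS7B 38, and RPL24A had 0 and RPL24B 27. The reverse order held for RPL2, a protein close to the peptidyl transferase center, with 27 in RPL2A and 0 in RPL2B. Introns behaved likewise, as the median difference between copies was 1.94 percentage points over 41 pairs with introns in both copies, compared with 0.309 points for the coding sequences of the same pairs, and rho was 0.18.

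**Figure D5:**
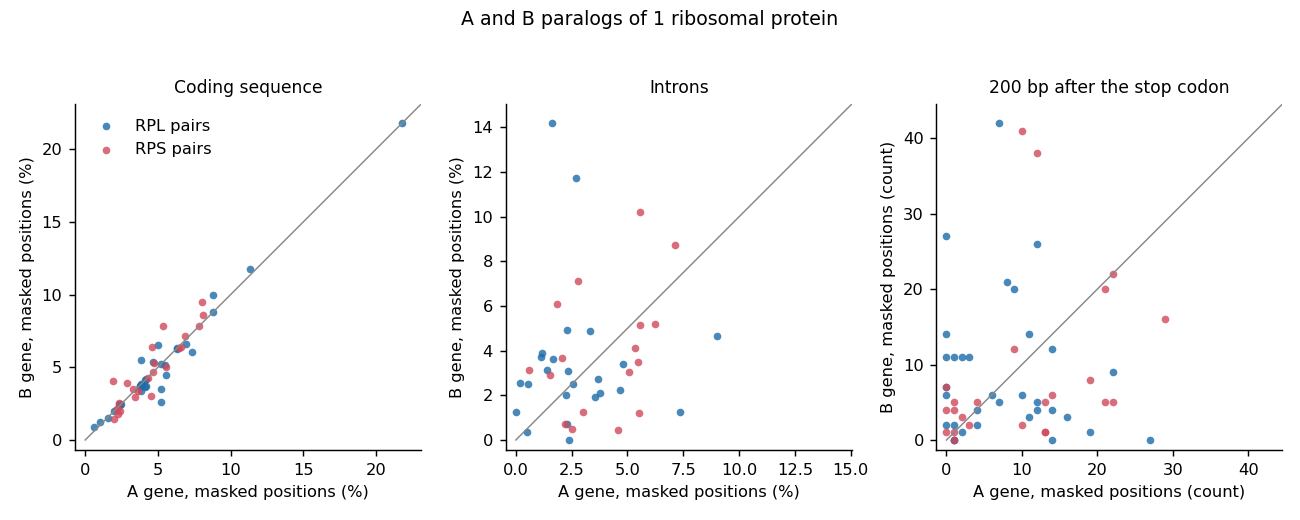
Masked positions of the B gene (y axis) against the A gene (x axis), 1 point per pair, as % of the coding sequence (left), % of the introns (middle) and number in the 200 bp after the stop codon (right), with the line of equality. Coding shares lie along the line (rho 0.89), while introns (rho 0.18) and the windows after the stop codon (rho 0.11) scatter, with RPL17B at 14.2% in introns and at 42 positions after the stop codon.

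The 88 ribosomal protein genes with introns held 90 introns and 36786 intronic positions, more than the 29450 of the other 183 intron-containing genes. Of the ribosomal protein introns 3.31% was masked, compared with 4.34% of the exons of the same genes. In other genes the shares were 2.53% in introns and 3.14% in exons. The intron was below the exons in 64 genes, 72.7%, close to the 69.4% of other genes. Under the written criteria the order turned, with 1.54% in introns and 0.916% in exons of ribosomal protein genes. A made up 34.5% of the sense strand of these introns, compared with 30.8% of ribosomal protein coding sequence. In 2 ribosomal protein genes, 2.27%, the introns had no masked position, compared with 44.8% of other genes. The median intron length per gene was 408.5 bp and 101 bp in these groups, and the part of length in this count was not tested.

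The highest intronic shares were those of RPL17B with 45 of 317 positions (14.2%), RPL26B with 56 of 477 (11.7%), RPS30B with 42 of 411 (10.22%), RPL22A with 35 of 389 (8.997%) and RPS27B with 48 of 550 (8.73%). RPL17 and RPL26 surround the tunnel exit, and RPS27 is a zinc-binding protein of the small subunit. At the other end, RPL31B had 0 of 349 and RPL2A 0 of 147, and RPL23A had 1 of 504, RPL43B 1 of 275 and RPS16B 2 of 432. RPL31B thus combined one of the highest coding shares with an intron free of masked positions.

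Masked positions were scarce at the 3′ end of these introns. In the last 50 bp before the 3′ splice site 0.8% was masked, compared with 1.76% in other introns. From 51 to 100 bp after the 5′ splice site the share was 6%, compared with 1.59% in other introns. With a median length of 101 bp per gene, many of the other introns end near there. The branch point sequence TACTAAC, searched on both strands, occurred on the sense strand in 84 of 90 ribosomal protein introns (93.3%) and 148 of 191 other introns (77.5%), and on the antisense strand in 4.44% and 0.524%. Per 1000 bases the order was the reverse on the sense strand, at 2.28 and 5.06, and the rates were 0.109 and 0.0340 on the antisense strand. The share of introns that hold the sequence also rises with their length. Between the last TACTAAC and the 3′ splice site, 27 of 3187 positions were masked, or 0.847%, and 78 of the 84 introns, 92.9%, had none there, compared with 76.4% of the other introns that hold the sequence. Upstream of the sequence the share was 3.74%. Other introns had 2.16% after TACTAAC and 2.99% before it, and the sequence lay a median of 36.5 bp from the 3′ splice site in ribosomal protein introns and 30.5 bp in others.

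Of the introns, 3 hold an annotated snoRNA gene, which is released from the spliced intron. RPL7A hosts SNR39, with 4 of 89 positions masked, the last base among them, RPL7B hosts SNR59, with 0 of 78, and RPS22B hosts SNR44, with 1 of 211. The introns around these genes had 18 of 468, 7 of 407 and 3 of 483 masked positions. RPL7A and RPL7B have a further intron each, which holds no snoRNA gene. Only the SNR39 gene therefore ended on a masked position.

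In the 200 bp after the stop codon, ribosomal protein genes did not stand out. There, 1124 of 26400 positions were masked, or 4.26%, compared with 4.50% in other genes, and the median gene had 6 and 5 masked positions. No position was masked in 18 genes, 13.6%, compared with 16.4% of other genes, and more than 20 were masked in 14 genes, 10.6%, compared with 13.2%. Both shares were near the background. The share was 4.95% in the first 50 bp and 3.77% from 151 to 200 bp, compared with 4.49% and 4.34% in other genes. The last base of the coding sequence was itself masked in 11 genes, 8.33%, compared with 5.08%. The stop codon was TAA in 85.6% of ribosomal protein genes and in 46.6% of other genes.

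The most masked positions after the stop codon were found for RPL17B with 42, RPS21B with 41, RPS7B with 38, RPS1A with 29, and RPL2A and RPL24B with 27 each. The distance from the stop codon to the first masked position was 4 bp in RPS21B, 3 bp in RPS1A, 23 bp in RPL2A, 38 bp in RPS7B, 39 bp in RPL24B and 88 bp in RPL17B. Windows of this kind began with masked positions in some genes and not in others, as the first 30 bases after the stop codon of the RPS21 genes (chrXI:552243-552272, plus strand; chrX:156520-156549, minus strand) and the RPL2 genes (chrVI:220477-220506, minus strand; chrIX:317933-317962, plus strand) show.
RPS21A: GAGAAAAGAAaaagaggattcgatttaagc
RPS21B: aaaGATAaatattgaaTAAAAagaagaggg
RPL2A: attatgtaaaatagtcattcttTAAGCAAG
RPL2B: tctttttaattttggtttcttccttctgtc

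Some of these genes appear in the study as examples or as a tag. RPL28, a large-subunit protein whose mutation gives resistance to cycloheximide, had 11 of 450 coding, 13 of 511 intronic and 2 of 200 following positions masked. RPS13 had 14 of 456, 3 of 539 and 2, and RPS9A had 28 of 594, 11 of 501 and 13. The intronless RPL9B had 7 of 576 coding positions and 3 after the stop codon. RPL13A had 33 of 600 coding positions, 2 of 365 intronic positions and 1 position after the stop codon, while RPL13B had 31 of 600, 10 of 402 and 11. The coding counts of RPL13A and RPL13B were close, whereas the counts after the stop codon, the end that a fusion replaces, were not. All 11 positions of RPL13B formed a single run that began 183 bp after the stop codon. Its window overlaps another gene on the same strand, which that of RPL13A does not.

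RPL40A, RPL40B and RPS31 encode fusions with ubiquitin at the N terminus. In each of them the 76 ubiquitin codons held 4 masked positions of 228, or 1.75%. The ribosomal parts held 12 of 159 in RPL40A and in RPL40B, or 7.55%, and 22 of 231 in RPS31, or 9.52%. Masked positions of these genes thus lay mostly in the ribosomal part.

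Other protein groups of translation and growth gave different shares. The nuclear genes of mitochondrial ribosomal proteins (67 genes) had a pooled coding share of 3.71% and a median of 3.401%, of which 39.1% met the written criteria, and AAG served for 42.6% of their lysines. The 5 genes of the ribosomal stalk, RPP0 to RPP2B, had 5.32% and a median of 6.54%. Their median lysine and arginine contents were 4.81% and 0%, below the 11.1% and 8.49% of ribosomal protein genes. The 9 translation elongation factor genes had 2.93% and a median of 3.05%, and the 16 glycolytic enzyme genes 2.03% and 2.10%. Both use AAG for most lysines, 89.1% and 83.3%. In the glycolytic genes 70.6% of the masked coding positions rested on exactly 4 As, near the 70.4% of the ribosomal protein genes. The 19 nucleolar assembly genes had 6.86% and a median of 6.78%, above the ribosomal protein genes, and 2.79% under the written criteria.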

How the data were processed

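QuantSeq REV libraries were mapped by the authors with STAR and SAMtools 1.3 to sacCer3, and read starts were collected with HTSeq 0.6.0, per the submitters' processing notes. The authors deposited the masked positions as 223663 strand-specific runs without a measured value. The signal of single libraries was not analysed here, so depth plays no part. The file holds 655732 positions, and 0 runs passed a chromosome end of R64. Coding exons, introns between them and the 200 bp after the stop codon were intersected with the mask on the gene's strand. Paralogs of unequal length (4 pairs) were aligned globally with biopython 1.88. Calculations used Python 3.11.15 and numpy 2.4.6, and were tested on a simulated genome. Members, lists and alternatives were chosen with earlier results of these data known. Genes were named by rules: the 5 highest and lowest coding and intron shares, the 5 pairs that differ most, the 5 highest counts after the stop codon, longest runs, snoRNA hosts, genes the study shows or tags, and fusions. Exceptions are stated, and the longest coding run is not reported here. The comparison groups were stalk, mitochondrial ribosomal, glycolytic, elongation factor and nucleolar genes.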

Additional observations from a re-analysis of the deposited data

How the results depend on the processing

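Of 19 alternatives for 5 comparisons, 1 of them chosen after seeing the data, 12 stayed within the 95% interval of the main difference (Wilson intervals combined, used only as a yardstick, since positions are enumerated and not sampled). Differences are in percentage points. For coding sequence, ribosomal protein genes less other genes gave 1.31, but -0.281 with the written criteria, -0.281 on the antisense strand, 0.354 without the last 200 bp in coding sequences of at least 400 bp, and 1.11 in these sequences when whole, which was chosen after seeing the data. Introns less exons gave -1.03, but 0.628 with the written criteria and -0.635 without the first 10 and last 50 bp of introns. RPL less RPS gave -0.0856, and, within its interval but with the sign turned, 0.0465 with 1 gene of each pair. The 200 bp after the stop codon gave -0.242, and 0.0842 when cut to 100 bp. The A less B difference of -0.0601 did not turn under either of its alternatives, of which the median within pairs was 0. The cause of these changes was not tested. No paired analysis of libraries was possible because the mask is 1 list for all of them, so that same-numbered libraries could not be paired. Pairs of paralogs were compared as genes.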

Other observations

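Only reads that aligned to 1 place of the genome entered the tracks, and the coding sequences of paralogs were between 79.5% and 99.4% identical. As a description of the reference, each coding position was taken with the 50 bases that end on it in the genome, and it was called unique if this 50-mer occurred once on both strands. The median ribosomal protein gene had 96.5% unique coding positions, 94.2% for both A and B genes, and 100% for the single copies and for other genes. Positions that were both unique and unmasked made up 91.7% of the median ribosomal protein gene and 97.2% of the median other gene. In 14 ribosomal protein genes, 10.6%, fewer than 50% of positions were left, compared with 4.395% of other genes. The lowest were RPL1A and RPL1B, which encode a protein of the L1 stalk, with 24.8% left and 25.1% unique. RPS8A and RPS8B had 28.7% left, and RPL35A and RPL35B 28.9%. The mask covered fewer positions of these genes than repeats did, at 3.82% of RPL1A and 8.82% of RPL35A. Reads were trimmed and differ in length, and shorter words were not analysed here.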
